A study of Danio rerio with 6 samples.

Results

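The genes described here are the 3 transcription factor genes that open the zebrafish genome for transcription, *pou5f3*, *nanog* and *sox19b*, and 3 genes transcribed in the early embryo, *blf*, *inka1a* and *vgll4l*. Every array feature that the platform annotation names as 1 of these 6 genes was taken, which gave 14 features. A further feature, listed under an old clone name, was assigned to *inka1a* through its accession, making 15 of the 45220 features and 6 of the 14434 named genes. The 6 genes were chosen with results of the same contrast in view, so their differences between the groups are a description, and no p-value of a single member is given.

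In zebrafish, the embryo starts on mRNA laid down in the egg and switches on its own genome at the midblastula transition, shortly before sphere stage. Pou5f3, Nanog and the SoxB1 factor Sox19b are translated from maternal mRNA, bind regulatory regions before transcription starts and make them accessible, after which much maternal mRNA is cleared. Nodal ligands such as Ndr1 act on the same blastula cells to specify mesoderm and endoderm, and Pou5f3, Nanog and the maternal T-box factor Eomesa act alongside them at many of their target genes.

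Expression was measured in whole AB embryos at sphere stage. By the labels, control-injected embryos received 1 nl of water, and *ndr1*-injected embryos received 50 pg of *ndr1* mRNA in the same volume. The general injection methods of the study name *egfp* mRNA as control and a smaller amount of *ndr1* mRNA, so whether the controls of these arrays also held mRNA is not settled, and the labels are followed here. Each of the 6 samples was total RNA from about 200 embryos, of which 15 µg was labelled with Alexa Fluor 555, and each group held 3 samples, hybridised to 1 one-colour array each. Whether replicate samples came from separate clutches is not stated in the labels, and the spread between them may therefore be technical. In whole-embryo RNA, fewer cells of a type and less RNA per cell cannot be told apart.

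The values are normalised signals on a log2 scale, between 4.92 and 16.3, with array medians of 8.70 to 8.71, and the number of arrays limits their precision. The arrays correlated across features at 0.836 to 0.886 within the control-injected group and at 0.920 to 0.926 within the *ndr1*-injected group. On every array the brightest features shared 1 highest value, 15.7 to 16.3, which 26 to 156 features held, so a value at that ceiling is only a lower limit. Of the 90 member values 1 was at the ceiling, that of *nanog* on control-injected array 2, and all others were at least 0.35 below it. The injected gene itself had means of 10.52 ± 0.39 without and 14.18 ± 0.58 with the injected mRNA (SD, n = 3), which differ by 3.65 ± 0.37 (SE) with an adjusted p of 0.0658 in the limma fit over genes. *gsc*, a homeobox gene of the dorsal organizer and a known Nodal target, rose 9.43-fold (adjusted p = 0.0401), a call lost when any 1 array was left out. In several gene lists described below, *ndr1*-injected replicate 1 stood apart from the other arrays of its group. Its correlations across features lay within the narrow range given above for that group.

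*pou5f3*, a POU domain factor, had 2 features. Feature 624 read 15.05, 14.82 and 14.88 on control-injected arrays 1, 2 and 3, and 14.85, 15.05 and 14.81 on *ndr1*-injected arrays 1, 2 and 3. The groups overlapped fully, and the difference, *ndr1*-injected minus control-injected, was -0.01 ± 0.26 (log2, moderated SE). That error is drawn toward the spread of all features and is wider than this feature's own spread, a pooled within-group SD of 0.12. Feature 15846 read 15.07, 14.96 and 14.95 against 14.70, 15.00 and 14.78, an overlap again, with a difference of -0.17 ± 0.26. Both features together gave a mean of 14.95 ± 0.09 for the controls and 14.86 ± 0.14 for the *ndr1*-injected group (SD, n = 3).

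*nanog*, a homeodomain factor, had 1 feature (18695), which read 15.22, 15.66 and 15.49 on the control-injected arrays and 14.85, 15.75 and 15.34 on the *ndr1*-injected arrays. The value of control-injected array 2 is a lower limit and has no place in the order. The other 2 control-injected values lay between the lowest and the highest *ndr1*-injected value, so the groups overlapped. The means were 15.46 ± 0.22 and 15.31 ± 0.45 (SD, n = 3), and the difference was -0.14 ± 0.33 (SE). Because of that limit the control mean is a lower limit as well, and without that array the difference was -0.04 ± 0.37.

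*sox19b*, the maternal member of the SoxB1 family, had 6 features, whose differences ran from -0.42 ± 0.35 (feature 16534) to -0.12 ± 0.35 (feature 43127). The brightest, feature 16534, read 13.95, 14.33 and 13.81 without *ndr1* mRNA and 13.05, 14.05 and 13.73 with it. In all 6 features the groups overlapped, the lowest value was that of *ndr1*-injected replicate 1 and the highest that of control-injected replicate 2. Averaged over the 6 features, the arrays read 13.50, 14.07 and 13.68 against 12.95, 13.78 and 13.82, with means of 13.75 ± 0.29 and 13.52 ± 0.49 (SD, n = 3) and a difference of -0.23. The 6 features thus moved together from array to array, and none of the 6 separated the groups. They are features of 1 gene, and their agreement says nothing about the spread between samples.

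**Figure D1:**
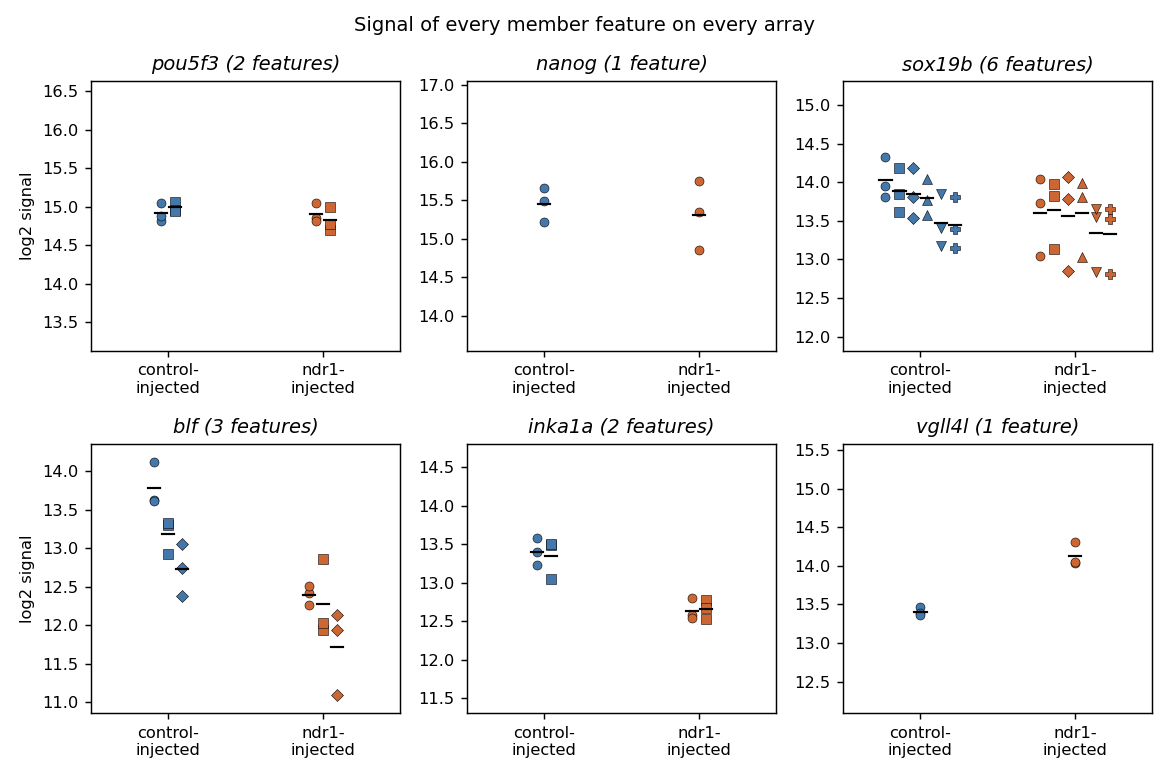
Signal of each of the 15 features on each of the 6 arrays (log2, vertical axis, each panel spanning the same range), with control-injected arrays in blue, *ndr1*-injected arrays in orange, a marker shape per feature and a line at each group mean of 3 arrays. The 9 features of *pou5f3*, *nanog* and *sox19b* overlap between the groups, the 5 features of *blf* and *inka1a* are lower on every *ndr1*-injected array, and *vgll4l* is higher on every one.

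Low *sox19b* and *nanog* on *ndr1*-injected replicate 1 went with low values of other maternal mRNAs on that array. For 12 measured genes listed as maternal mRNAs cleared after genome activation, clearance itself was not measured, since all samples were taken at sphere stage. Of these 12, 2 were at the ceiling on 1 or more arrays. The mean signal of the other 10 was 12.30, 12.62 and 12.33 on the control-injected arrays and 11.75, 12.41 and 12.36 on the *ndr1*-injected arrays. Among the *ndr1*-injected arrays, 9 of these 10 were lowest in replicate 1 (90.0%, against 41.9% of all genes). They include *gdf9* and *bmp15*, which encode oocyte growth factors, *zar1*, an oocyte mRNA-binding protein, and *cpeb1b*, which controls polyadenylation of stored mRNA. Early zygotic genes lay the other way, with 16 of 23 highest in replicate 1 (69.6%, against 28.1% of all genes). Of the *pou5f3* features, 15846 was lowest among the *ndr1*-injected arrays in replicate 1 and 624 in replicate 3. The part of what sets that array apart in the *sox19b* and *nanog* values was not tested. With that array left out, the *nanog* difference was 0.09 ± 0.33, the *sox19b* features ran from -0.14 to 0.14, and the *pou5f3* features read 0.01 and -0.10. With control-injected replicate 2 left out instead, the *sox19b* features ran from -0.27 to 0.06 and the *pou5f3* features read -0.06 and -0.18.

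**Figure D2:**
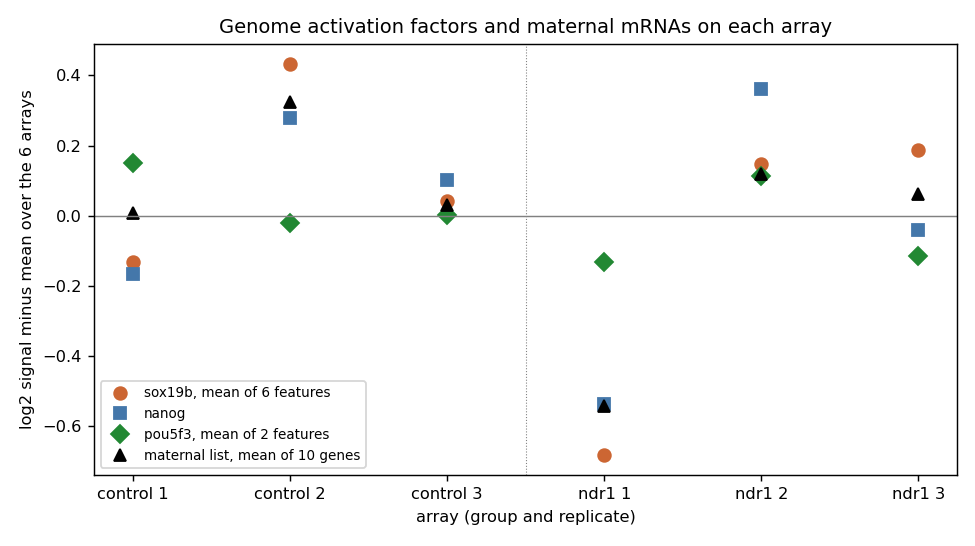
Signal on each array minus the mean over the 6 arrays (log2, vertical axis) for *sox19b* (mean of 6 features), *nanog*, *pou5f3* (mean of 2 features) and the mean of the 10 maternal genes never at the ceiling, by group and replicate; the *nanog* value on control 2 is a lower limit. On *ndr1*-injected replicate 1, *sox19b*, *nanog* and the maternal mean all lie below their values on the 5 other arrays.

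*blf*, which encodes a zinc finger protein, was the member with the largest difference. Feature 16956 read 14.12, 13.62 and 13.61 on the control-injected arrays and 12.42, 12.26 and 12.51 on the *ndr1*-injected arrays. The lowest control-injected value was 1.11 above the highest *ndr1*-injected one, and the means were 13.78 ± 0.29 and 12.39 ± 0.13 (SD, n = 3). They differed by -1.39 ± 0.28 (SE), which puts *ndr1*-injected embryos at 38.1% of the control-injected level. The other 2 features were also lower on every *ndr1*-injected array, by narrower margins. Feature 31581 read 13.31, 12.92 and 13.32 against 11.93, 12.02 and 12.86, a difference of -0.91 ± 0.34, and here *ndr1*-injected replicate 3 came within 0.07 of the lowest control-injected value. Feature 33924 read 13.06, 12.38 and 12.74 against 11.93, 11.09 and 12.13, a difference of -1.01 ± 0.37 with a gap of 0.25. The 3 features thus put *ndr1*-injected embryos at 38.1% to 53.1% of control-injected embryos. Without *ndr1*-injected replicate 1 the differences were -1.40, -0.74 and -1.12.

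*inka1a* encodes a small protein of the Inka family, which inhibits p21-activated kinases in mammals. Feature 2780, assigned to the gene through its accession, is the brighter and stands for *inka1a* where 1 feature per gene is used. It read 13.40, 13.23 and 13.58 in the controls and 12.80, 12.58 and 12.54 after injection of *ndr1* mRNA. The gap between the groups was 0.43, and the difference was -0.76 ± 0.27, or 58.9% of the control-injected level. Feature 3273 read 13.49, 13.05 and 13.50 against 12.78, 12.53 and 12.67, with a gap of 0.27 and a difference of -0.69 ± 0.28, or 62.1%. Both features were lower on all 3 *ndr1*-injected arrays, and their differences lay 0.08 apart. Without *ndr1*-injected replicate 1 they were -0.85 and -0.75.

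*vgll4l*, a vestigial-like gene whose relatives in mammals bind Tead factors and compete with Yap for them, lay the other way. Its single feature (23272) read 13.46, 13.38 and 13.36 in the controls and 14.03, 14.32 and 14.06 after injection of *ndr1* mRNA. Every *ndr1*-injected array was thus above every control, by 0.57 at the nearest point. The means were 13.40 ± 0.06 and 14.13 ± 0.16 (SD, n = 3), which is 0.73 ± 0.26 (SE) higher, or 1.66-fold. Without *ndr1*-injected replicate 1 the difference was 0.78.

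Of the 15 member features 5 were lower on every *ndr1*-injected array than on every control-injected array, 1 was higher and 9 overlapped. Over all features 5.55% were lower and 7.53% higher without overlap; the members were picked on this contrast, so their counts are not read against these shares. By gene, with the brightest feature of each, 2 of 6 were lower and 1 was higher, where 5.86% and 8.11% of all genes were. In the fit over genes 3 of 14434 genes (0.0208%) passed an adjusted p of 0.05, and 0 of the 6 members did. At an unadjusted p below 0.05 the counts were 3 of the 6 members and 6.93% of all genes, and nothing is read from the members' count for the same reason. Feature by feature limma called 0 of 45220 (0%) and 0 of the 15 members, with 6 of the 15 and 6.74% of all features at an unadjusted p below 0.05. Among the differences of all genes, each by its brightest feature, 39 genes (0.270%) were lower than *blf* and 631 (4.37%) were lower than *inka1a*. In *blf* (-1.39, against -0.91 and -1.01) and *inka1a* (-0.76, against -0.69) that feature had the lowest difference of the gene. Above *vgll4l* lay 1111 genes (7.70%). The lowest-ranking of the activators, *sox19b* by its brightest feature, had 2205 genes below it.

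How far these differences rest on where a feature lay on the array was examined next. Deviations of a feature from its median over the arrays were shared by its neighbours, with a correlation of 0.509 between features 1 number apart and 0.088 between features 42 apart. Subtracting the local median deviation of all features in a window of 9 by 9 lowered the median within-group SD of all features from 0.482 to 0.312. The member features, however, belonged to the brightest signals, with 94.2% to 99.6% of features dimmer, and among the 4522 brightest features the same step raised the median SD from 0.213 to 0.387. For the members it rose from 0.374 to 0.506, and 2 of 15 features had a smaller SD than before. A second subtraction, chosen after these values had been seen, used only these bright features and a window of 25. It lowered the median SD of the bright features to 0.150 and that of the members to 0.246, and 10 of the 15 had a smaller SD.

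**Figure D3:**
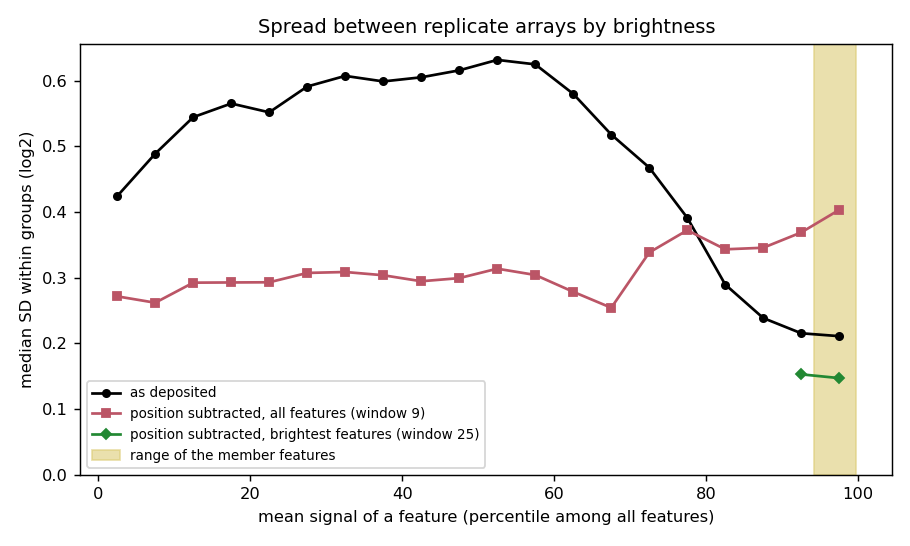
Median within-group SD of features (log2, vertical axis, from 0) in bins of mean signal (percentile among all 45220 features) as deposited and after each subtraction of array position, with the range of the 15 member features shaded. In the shaded range the subtraction over all features lies above the deposited values and the subtraction over the 4522 brightest features lies below them.

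The directions of *blf* and *inka1a* held under both subtractions, with values that moved. The 3 *blf* features stood at -0.81, -1.01 and -0.92 after the subtraction over all features and at -1.16 ± 0.16, -0.94 ± 0.17 and -1.24 ± 0.23 after that over the bright features. After the former, the groups overlapped in the first of the 3. Errors after the latter come from a separate fit over the bright features alone and are not comparable with the errors as deposited. For feature 16956 the within-group SD was 0.22 before and after that subtraction, while the error went from 0.28 to 0.16. The 2 *inka1a* features stood at -1.24 and -1.03 and then at -0.95 ± 0.11 and -0.80 ± 0.17, without overlap on either scale. *vgll4l* depended on the choice most. Subtraction over all features left 0.18 with overlapping groups, and 0.11 to 0.43 over the windows of 5 to 25, whereas subtraction over the bright features gave 0.88 ± 0.10 with no overlap, or 184% of the control-injected level. Over all 15 features, 5 were lower and 0 higher without overlap after the first subtraction (6.11% and 6.79% of all features), and 5 lower and 1 higher after the second (5.09% and 7.05% of the bright features).

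For the activators the subtraction over all features scattered features of the same gene. Those of *pou5f3* went to -0.60 and 0.12, an interval of 0.72 where they had differed by 0.16, and the first of them no longer overlapped between the groups, while on the second scale they stood at -0.06 ± 0.09 and 0.00 ± 0.10. The 6 *sox19b* features spread from -0.56 to 0.19 and, on the second scale, from -0.29 to -0.06. *nanog* went to -0.54 and to -0.07 ± 0.16. The subtraction over the bright features thus left the groups of all 3 activators overlapping, with the narrowest errors for *pou5f3*. The scatter was not general. After the subtraction over all features, the range of the *blf* features narrowed from 0.48 to 0.21, while that of *inka1a* widened from 0.08 to 0.21. Over all 3964 genes with 2 features the median range narrowed from 0.40 to 0.30.

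**Figure D4:**
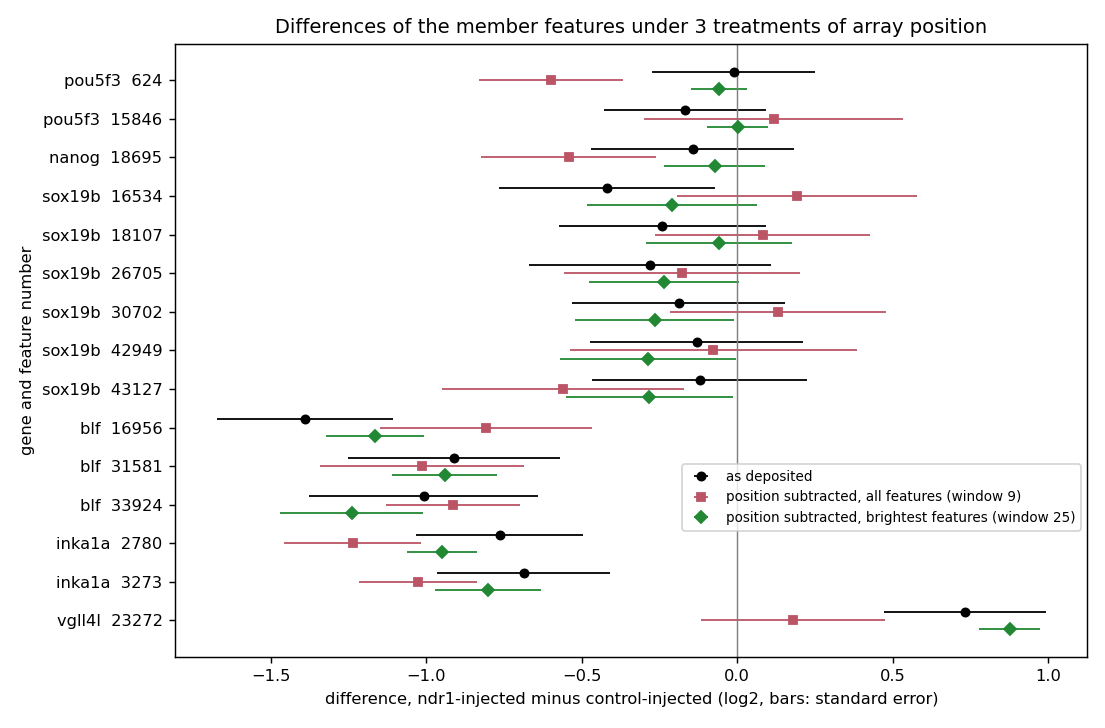
Difference between the groups (*ndr1*-injected minus control-injected, log2, horizontal axis, bars 1 moderated SE) for each of the 15 features as deposited, after subtraction of position over all features (window 9) and after subtraction over the 4522 brightest features (window 25). The points of *vgll4l* lie at 0.73, 0.18 and 0.88, and all points of *blf* and *inka1a* lie below 0. Errors after the subtraction over the brightest features come from a fit over those features alone and are not comparable with the other errors.

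The genes whose profile over the 6 arrays was nearest to that of *blf*, by the root mean square difference of centred values of the brightest feature, were *rxfp3.2b*, a relaxin family peptide receptor gene, *myl4*, a myosin light chain gene, and *trpm1b*, a cation channel gene. They lay 0.118, 0.126 and 0.128 from *blf*, against a median of 0.822 over all genes and 0.379 and 0.330 for the other 2 features of *blf* itself. Their differences were -1.24, -1.21 and -1.31. Nearest to *inka1a* were *def6c* (0.0685), *pgm3* (0.0933) and *kazald2* (0.128), and the other *inka1a* feature lay at 0.105. On all 6 arrays *myl4* and *trpm1b* lay below the array medians, and *rxfp3.2b* and *def6c* did so on the *ndr1*-injected arrays. Whether those signals lay above background is not known. With 6 arrays from 2 groups, a short distance mostly restates a like difference between the groups. After the subtraction over all features the 3 genes nearest to *blf* stood at -0.54, -0.96 and -0.93, and those nearest to *inka1a* at -0.17, -0.06 and -0.88.

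Genes of the same pathway were read from lists chosen with earlier results of these data known, and the median difference of each list is set beside that of all genes, 0.01. Of 23 measured early zygotic genes other than the members, 1 rose, 0 fell and 22 did not pass. Their median was 0.00 over all 23, or 0.05 over the 22 never at the ceiling. The gene that rose was *foxa3*, a forkhead gene of the endoderm, by 3.39 ± 0.28 (SE) or 10.5-fold (adjusted p = 0.0401), a call lost when any 1 array was left out. *dusp6*, an inhibitor of FGF signalling, had a difference of 1.18 ± 0.23, *foxd3*, a forkhead repressor, of 1.14 ± 0.33 and *sox3*, a zygotic SoxB1 gene, of -0.73 ± 0.20, with adjusted p of 0.498, 0.694 and 0.694. *sox3* read 12.05, 12.18 and 12.06 in the controls and 11.33, 11.35 and 11.41 after injection of *ndr1* mRNA, so the groups did not overlap. At an unadjusted p below 0.05, 6 of the 23 early zygotic genes were higher and 1 was lower, where 6.93% of all genes passed in either direction, and 16 of the 23 were highest among the *ndr1*-injected arrays in replicate 1.

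Among 13 measured cofactors of genome activation, which include chromatin regulators and the DNA-binding partners of the Nodal effectors, 0 passed. The median was 0.19, or -0.10 after the subtraction over all features, and 0.13 as deposited over the 12 never at the ceiling. *ybx1*, a maternal RNA-binding protein, had a difference of 0.53 ± 0.25 and *hmga1a*, a chromatin architectural protein, of 0.48 ± 0.23. *hmga1a* was at the ceiling on *ndr1*-injected array 3, so its difference is a lower limit. *foxh1*, the forkhead partner of Smad proteins, stood at -0.40 ± 0.25 and *eomesa* at -0.28 ± 0.22, the latter at 0.59 after the subtraction over all features and at -0.14 after that over the bright features. Of the 12 maternal genes 0 passed, and the median was -0.21, or -0.25 over the 10 never at the ceiling. The 4 of smallest p were *gdf9* at -0.52 ± 0.25, *cpeb1b* at -0.54 ± 0.26, *bmp15* at -0.60 ± 0.32 and *zar1* at -0.42 ± 0.25.

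The families of the members gave no call either. Of 8 measured relatives of *pou5f3*, all POU genes, 0 passed, with a median of 0.29. *pou4f1* stood at 0.83 ± 0.38, *pou3f2b* at -0.51 ± 0.34, *pou3f2a* at 0.33 ± 0.23 and *pou2f1a* at 0.30 ± 0.21. No Nanog-like relative was among the named genes. Of the 8 SoxB relatives 0 passed, with a median of -0.06; *sox21a* stood at -0.29 ± 0.23 and *sox1b* at 0.20 ± 0.22. In the same list *sox19a*, the zygotic paralogue of *sox19b*, stood at -0.71 ± 0.38 and, like *sox3*, is also among the early zygotic genes. Among these lists, 3 of the POU, 5 of the SoxB, 3 of the Vgll, Tead and Yap and 1 of the Inka and Pak genes were below the array medians in both groups, where whether the signal lay above background is not known. In the *vgll4l* pathway 6 of 12 listed genes were measured, and 0 passed. *tead3b* and *tead1a*, which encode the DNA-binding Tead factors, stood at 0.28 ± 0.26 and -0.14 ± 0.22, *vgll4b* at -0.27 ± 0.31, *vgll2b* at 0.15 ± 0.26, *vgll2a* at -0.12 ± 0.39 and *wwtr1*, which encodes the Yap paralogue Taz, at -0.07 ± 0.48. In the Inka and Pak list 6 of 9 were measured, and 0 passed. The *inka1a* paralogue *inka1b* stood at -0.20 ± 0.26. Among the kinase genes *pak5*, the gene of this list below the array medians, stood at -1.11 ± 0.28, *pak1* at 0.53 ± 0.22, *pak4* at 0.25 ± 0.22, *pak2a* at -0.12 ± 0.25 and *pak2b* at 0.08 ± 0.25, and after the subtraction over all features *pak5* was at -0.45 and *pak1* at 0.06.

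**Figure D5:**
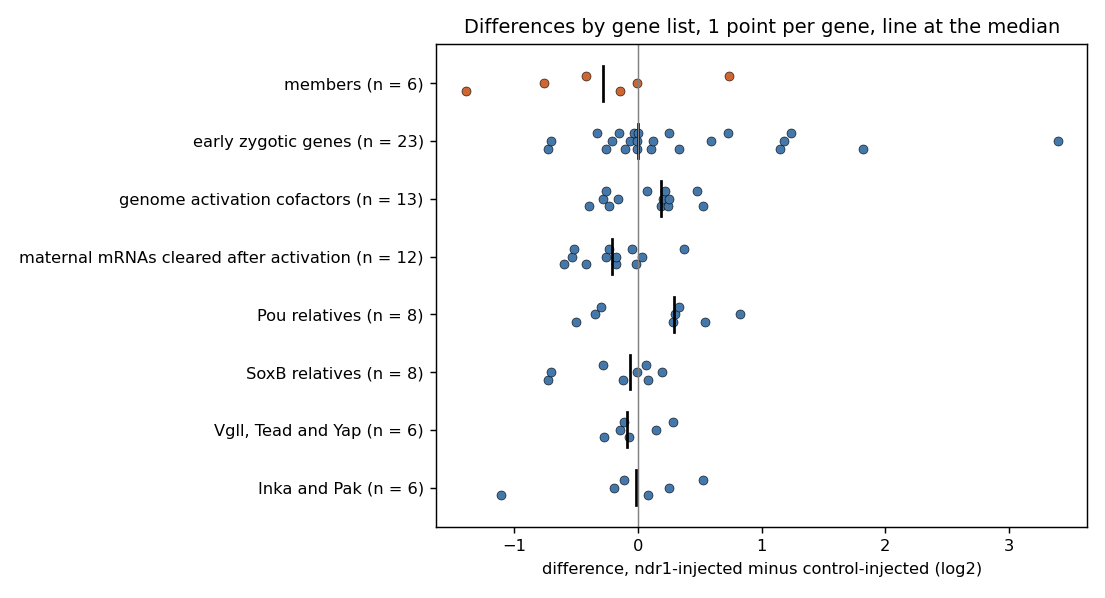
Difference between the groups of each measured gene (1 point per gene by its brightest feature, log2, horizontal axis) in the 6 members and in 7 lists, with a line at the median of each list. The medians of the 7 lists lie between -0.21 and 0.29, and *foxa3*, at 3.39, is the point farthest to the right.

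Other tissues of the whole embryo were followed by their markers. Of the enveloping layer, yolk syncytial layer and germ plasm markers 8, 7 and 7 were measured, 0 passed in any list, and the medians were 0.17, 0.35 and -0.22, the second 0.16 without *ctsla*, which was at the ceiling on 1 array. *krt4*, *cldne* and *mxtx2* are also among the early zygotic genes. *krt18a.1*, a keratin gene of the enveloping layer, stood at 1.45 ± 0.34, *cldnf* at 0.55 ± 0.38, *krt92* at 0.26 ± 0.33 and *anxa1b* at 0.23 ± 0.26. After the subtraction over all features these were at 0.92, 0.37, -0.16 and 0.09. The other enveloping layer markers, *cldne*, *krt8*, *krt4* and *krt5*, stood at 0.10 ± 0.37, 0.02 ± 0.48, -0.06 ± 0.34 and -0.11 ± 0.47 as deposited. Among the *ndr1*-injected arrays, 7 of the 8 enveloping layer markers were highest in replicate 1 (87.5%, against 28.1% of all genes). Their mean signal ran from 10.94 to 11.43 over the control-injected and from 11.09 to 12.07 over the *ndr1*-injected arrays. Of the yolk syncytial layer markers *gata6*, a GATA factor gene also used in endoderm, stood at 2.31 ± 0.56 and *slc40a1*, an iron exporter gene, at -1.24 ± 0.30, with adjusted p of 0.669 and 0.671. *gata6* lay below the array medians on the control-injected arrays and *slc40a1* on the *ndr1*-injected arrays. After the subtraction over all features *gata6* was at 2.27 and *slc40a1* at -0.58. *ctsla* stood at 0.43 ± 0.23 and *rbp4*, below the array medians in both groups, at -0.35 ± 0.27. *mxtx2* stood at -0.04 ± 0.25, *hnf4a* at 0.46 ± 0.49 and *ttr*, also below the array medians in both groups, at 0.35 ± 0.29. The mean of this list ran from 9.65 to 9.79 and from 9.69 to 10.41, and for the germ plasm from 11.38 to 11.46 and from 11.03 to 11.51. The germ plasm markers *dazl*, *piwil1* and *nanos3* stood at -0.35 ± 0.22, -0.31 ± 0.24 and -0.31 ± 0.27 and *tdrd7a* at 0.28 ± 0.22, and 6 of 7 were lowest among the *ndr1*-injected arrays in replicate 1. The part of these tissues in the member differences was not tested. Leaving out that array could not change the direction of *blf*, *inka1a* or *vgll4l*, because their groups did not overlap as deposited.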

How the data were processed

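Per the labels, total RNA of whole sphere-stage embryos was labelled and hybridised to 6 one-colour Agilent arrays. The authors normalised the signals by qspline and deposited 1 log2 value per feature and array; the log2 scale was read from the range of the values. How background was corrected, which spots were detected and which slide held each array is not given in the sources used here. Names came from the platform annotation, matched through Entrez numbers (20133 features) or accessions (408) to the GRCz12tu RefSeq names, which changed 298 symbols. Another 520 features had no match and kept the listed symbol, and 24159 unlisted features stay unnamed. The fit used limma 3.58.1 (lmFit, eBayes; R 4.3.3) with 2 groups and no covariate, over all 45220 features (member values) and over 14434 genes by their brightest feature (list genes). Benjamini-Hochberg adjusted p below 0.05 was a call. Errors of differences are moderated standard errors. Moderation draws each variance toward a value common to all features or genes in the fit. As deposited, the median within-group SD was 0.482 over all features and 0.213 over the 4522 brightest. Where a bright member varied little, as *pou5f3* and *vgll4l* did, its error is therefore wider than its own arrays would give.

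Members and lists were chosen with earlier results of these data known. Named are all member features, the 3 genes nearest to *blf* and to *inka1a*, the 4 genes of smallest p per list, and *ndr1* and *gsc*. All measured genes are named of the Vgll, Tead and Yap, the Inka and Pak, the enveloping layer and the yolk syncytial layer lists. Array position used a grid of 85 columns and 532 rows inferred from neighbouring feature numbers, with windows of 5, 9, 15 and 25 features. The subtraction over the 4522 brightest features was added after the data had been seen. Scripts were tested on simulated data.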

Additional observations from a re-analysis of the deposited data

How the results depend on the processing

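The limits are 3 arrays per group, 1 feature each for *nanog* and *vgll4l*, and a scale with a ceiling that *nanog* reached. A further limit is *ndr1*-injected replicate 1, which stands apart in several gene lists. Control-injected replicate 2 weighed on the results as well. Without it 1696 genes had an unadjusted p below 0.05 in the limma fit over genes, against 1000 with all arrays. The values of *blf*, *inka1a* and *vgll4l* changed under 16, 16 and 15 of the 20 alternatives tried and kept their sign. The rest, among them the replicate block and the intensity trend with robust variance, leave a difference the same by construction. The values moved by more than the pooled within-group SD of the gene's brightest feature under 7, 6 and 5 alternatives. Their ranges were -1.48 to -0.79, -1.25 to -0.68 and 0.11 to 0.88. Some of these alternatives left out 1 array, which could not change the sign, because the groups of these genes did not overlap as deposited. Those of *pou5f3*, *nanog* and *sox19b* changed sign under 3, 1 and 4 alternatives, with ranges of -0.60 to 0.06, -0.56 to 0.09 and -0.64 to 0.19. Where a value moved, the cause was not tested.

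Subtraction of array position over all features, in windows of 5, 9, 15 and 25, gave -0.55, -0.60, -0.50 and -0.49 for *pou5f3* and 0.12, 0.19, 0.15 and 0.10 for *sox19b*. It gave -0.88, -0.81, -0.79 and -0.87 for *blf*, -1.22, -1.24, -1.21 and -1.25 for *inka1a*, and 0.11, 0.18, 0.25 and 0.43 for *vgll4l*. For *nanog* it gave -0.56 and -0.54 in windows of 5 and 9. Subtraction over the 4522 brightest features, in windows of 15 and 25, gave -1.15 and -1.16 for *blf* and -0.93 and -0.95 for *inka1a*, and in the window of 25 it gave 0.88 for *vgll4l*. The mean of the 3 *blf* features was -1.10.

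The count of genes called, 3 in the fit reported, was 27 with an intensity trend and robust variance, 5 with array weights, and 0 whichever 1 array was left out. It was 10, 16, 26 and 23 after subtraction of position in windows of 5, 9, 15 and 25. Among the bright features it was 16 and 16 after subtraction in windows of 15 and 25 and 15 as deposited. At an unadjusted p of at most 0.02 it was 395. The count of features, 0 in the fit reported, was 42 with the trend, 6, 27, 32 and 36 in the 4 windows, 21, 21 and 26 among the bright features, and 1065 at an unadjusted p of at most 0.02. In the window of 25, the 21 called of the 4522 bright features included 3 member features. The members were picked on this contrast, and this scale was chosen after the data had been seen. Nothing is read from that count.

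Whether replicate numbers pair the samples is not known. Deviations of same-numbered arrays correlated at 0.18, -0.10 and 0.04, and those of differently numbered arrays at -0.26 to 0.22. These values cannot settle it, because deviations were also shared between neighbouring features. With the replicate number as a block, 0 genes and 0 features were called. The block cannot change the member differences, because each replicate number occurs once in each group.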
